A study of Mus musculus with 8 samples.

Results

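The genes described here carry fatty acids into the muscle cell, release them from stored fat and break them down in mitochondria. They were taken by symbol from a list of 39 genes, which was chosen with earlier results of these data known. All 39 have a row among the 54532 genes counted in each library. RNA from quadriceps muscle of mice aged 3 months, kept on chow, was read by 3′ mRNA sequencing, which samples transcripts close to their polyadenylated end. Control mice (4 libraries) were Gpcpd1 Flox/Flox and negative for Mck Cre. MckCre Gpcpd1 mice (4 libraries, called knockout here) were Gpcpd1 Flox/Flox and positive for MckCre. Both groups therefore carried the floxed allele, and the Cre transgene was present in the knockouts alone. The muscle creatine kinase promoter drives Cre in skeletal and heart muscle, so vessel, fat, immune and connective tissue cells of the quadriceps are not its target. Sex and litter are not in the labels used here, nor do the labels say that each library came from its own mouse, so the p-values measure the spread between libraries, which may be technical. The study asked what loss of Gpcpd1, a glycerophosphodiesterase that releases choline from glycerophosphocholine, does to muscle and glucose metabolism.

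Skeletal muscle burns fatty acids taken from blood and from its own lipid droplets. Lipoprotein lipase frees them from circulating triglyceride, membrane transporters and binding proteins bring them in, and acyl-CoA synthetases couple them to coenzyme A. Lipid droplets are emptied by a chain of lipases under the control of perilipins. The carnitine shuttle moves long acyl chains into mitochondria, where repeated rounds of dehydrogenation, hydration, a second dehydrogenation and thiolysis shorten them and pass electrons to the respiratory chain.

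Levels are CPM, the reads of a gene scaled to a common library size after TMM normalization, which corrects for differences in composition. Means are given ± SD over the 4 libraries of a group (n = 4). Gpcpd1 itself was at 159, 156, 135 and 149 CPM in controls 1 to 4 and at 30.4, 35.7, 35.9 and 38.6 in knockouts 1 to 4 (log2 fold change -2.09, SE 0.10). Its level went with the genotype label in every library, but the labels do not say which exons were floxed, and reads from the 3′ end do not show the deletion itself. Library totals ran from 4404116 to 5405999 reads, and the 39 genes took up between 0.650% and 0.692% of each control and between 0.668% and 0.837% of each knockout. Fabp3, the most abundant of the 39, weighs most on these shares, with a mean of 1499.7 CPM in controls and 2196 in knockouts. The counts of Cpt1b and Ucp2 were too low to test, and that of Cpt1b is not a measure of its RNA, for reasons given below. The other 37 passed the filter on low counts and were tested together with all 10691 genes that did, by edgeR's quasi-likelihood test with Benjamini-Hochberg adjustment over all of them and a threshold of 0.05. Every adjusted p below is from that test, and each standard error (SE) and 95% confidence interval is on the log2 scale.

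Fatty acid genes did not move as a block. Of the 37 tested, 7 rose in the knockout (18.9%, against 8.87% of all tested genes), 2 fell (5.41%, against 6.80%) and 28 did not pass the threshold, so that 24.3% changed against 15.7% of all tested genes. The rises were in Fabp3, Slc27a1 and Acsl1 at the entry step, in Slc25a20 and Cpt2 of the carnitine shuttle and in Eci1 and Hadh of the oxidation spiral. The falls were in Acsl6, an acyl-CoA synthetase, and Ucp3, an uncoupling protein. No gene of lipolysis or the lipid droplet and none of electron transfer passed the threshold. The median log2 fold change over the 37 genes was 0.10, against 0.01 over all tested genes. That median ran from 0.04 to 0.17 when single libraries were left out. Values were above 0 in 27 of the 37 and below in 10, against 5446 above and 5245 below among all 10691 tested genes. The groups did not overlap in 11 of the 37 (29.7%, against 19.2% of all tested genes). The number that fell was 3 under each of the other scalings and with a stricter filter on low counts, when Mlycd was also called. It was 4 with no such filter and 4 without knockout 1, when Cpt1a and Mlycd were. Of the calls over all tested genes 56.6% were higher, and 47.9% with library totals alone as the scaling, under which 7 of the 37 rose and 3 fell.

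**Figure D1:**
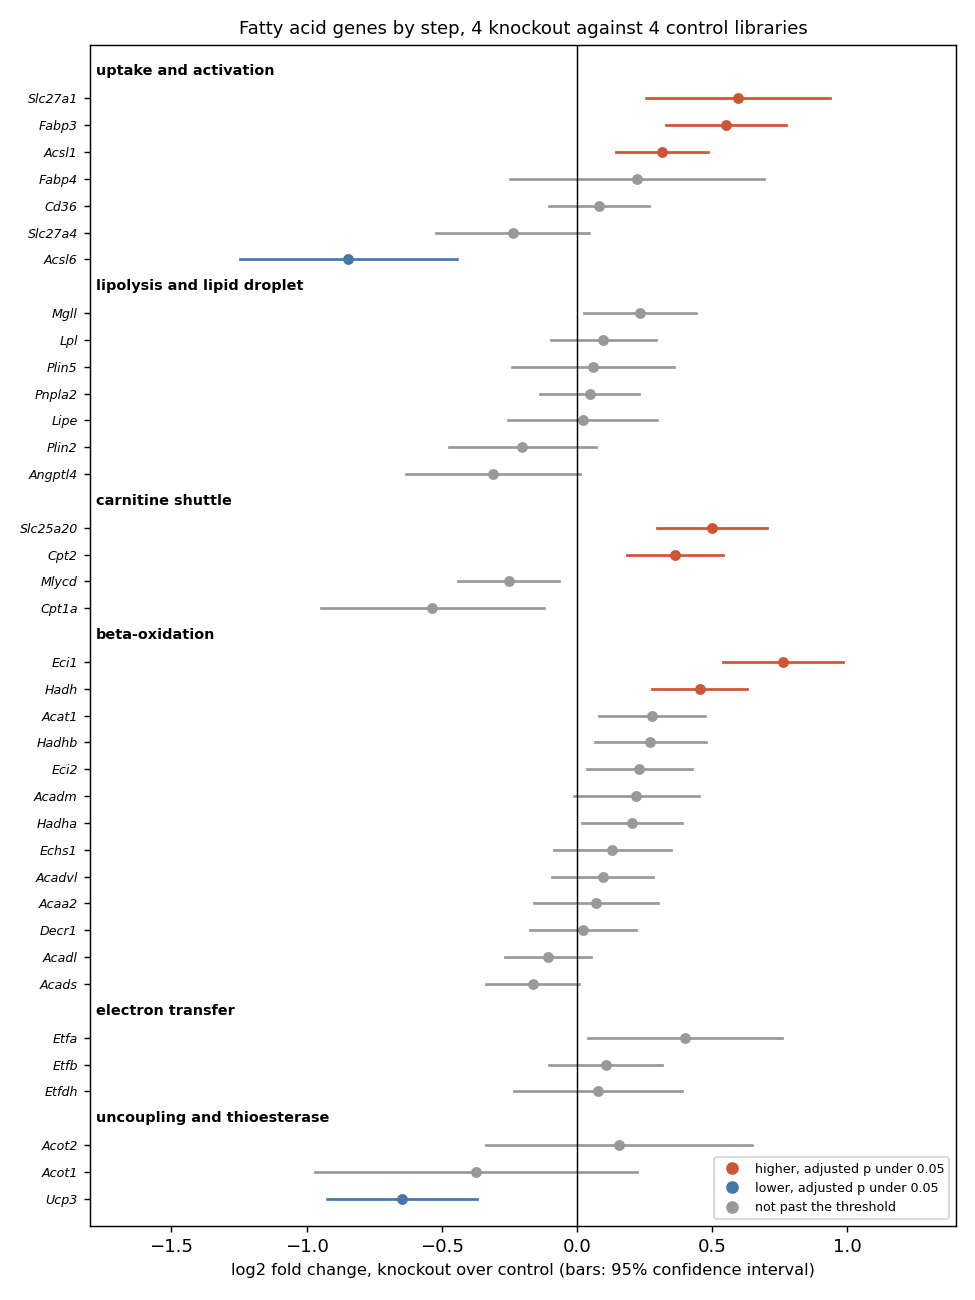
Log2 fold change of knockout over control (x axis) for the 37 tested genes, grouped by step, with 95% confidence intervals as bars. Of these, 7 lie to the right of 0 and 2 to the left among the genes past the adjusted threshold, and the 7 lipolysis genes all fall short of it.

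At the entry step 3 of 7 genes rose (42.9%, against 8.87% of all tested genes) and 1 fell (14.3%, against 6.80%). Fabp3 (ENSMUSG00000028773) encodes the fatty acid binding protein of heart and skeletal muscle, which carries fatty acids through the cytosol. It stood at 1315, 1589, 1500.1 and 1595 CPM in controls 1 to 4 and at 2630.2, 2110.3, 1719 and 2325 in knockouts 1 to 4. All 4 knockouts were above all 4 controls, with knockout 1 highest and knockout 3 closest to the controls. The mean went up from 1499.7 ± 130.3 to 2196 ± 383 CPM, or 0.55 on the log2 scale (SE 0.11, edgeR adjusted p = 0.000869). Fabp3 lies on chromosome 4 of GRCm38 at 130308595 to 130315463 on the plus strand, and 19.6% of its exonic bases are shared with genes on the other strand, so its count is uncertain where strand was not used in counting. Those genes, Zcchc17 and Gm10570, held 3877 and 9 reads over the 8 libraries against 72951 for Fabp3.

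Slc27a1 (ENSMUSG00000031808, GRCm38 chromosome 8, 71568882 to 71587302, plus strand) encodes FATP1, a transporter of fatty acids with acyl-CoA synthetase activity. Its levels were 10.1, 9.32, 8.42 and 10.7 CPM in controls 1 to 4 and 13.4, 16.6, 11.5 and 16.9 in knockouts 1 to 4. The groups did not overlap, and knockout 3 was again the knockout nearest to the controls. Slc27a1 rests on few reads, 187 in the controls and 292 in the knockouts together. The log2 fold change was 0.60 (SE 0.16, edgeR adjusted p = 0.0136), but the gene was no longer called without control 3 (adjusted p = 0.0600), knockout 2 (0.0583) or knockout 4 (0.0660). Slc27a4, which encodes the related transporter FATP4, averaged 20.8 ± 1.88 CPM in controls and 17.7 ± 2.82 in knockouts, with an interval for the log2 difference of -0.52 to 0.04.

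Acsl1 and Acsl6 encode long-chain acyl-CoA synthetases, which attach coenzyme A to a fatty acid and so commit it to use inside the cell. Acsl1 (ENSMUSG00000018796, GRCm38 chromosome 8, 46471037 to 46536051, plus strand), the main form of muscle and fat, was measured at 202, 182, 179 and 181 CPM in controls 1 to 4 and 238, 236, 208 and 243 in knockouts 1 to 4. It was higher in every knockout (log2 fold change 0.31, SE 0.08, edgeR adjusted p = 0.00981), a call that ended without control 3 (adjusted p = 0.0509) or knockout 4 (0.0520). Acsl6 (ENSMUSG00000020333, GRCm38 chromosome 11, 54303798 to 54364756, plus strand) went the other way, from 14.0, 8.11, 9.99 and 10.7 CPM in controls 1 to 4 to 6.49, 5.73, 6.13 and 5.33 in knockouts 1 to 4. No knockout reached the lowest control, and the log2 fold change was -0.85 (SE 0.19, edgeR adjusted p = 0.00346). Acsl6 rests on few reads, 207 in the controls and 119 in the knockouts together. The antisense gene Gm12224, which shares 2.04% of the exonic bases of Acsl6, held 11081 reads against 326, so the level of Acsl6 is uncertain where strand was not used in counting. Gm12224 itself had a log2 fold change of 0.12 (SE 0.09), and the part of its reads in the Acsl6 level was not tested.

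Cd36 and Fabp4 complete the entry step and did not pass the threshold. Cd36 encodes a fatty acid translocase of muscle, fat, vessel and macrophage membranes, and it averaged 117 ± 9.35 CPM in controls and 124 ± 11.3 in knockouts, with an interval of -0.10 to 0.27. Fabp4, a binding protein of adipocytes and endothelial cells, ran from 191 to 348 CPM in controls and from 233 to 348 in knockouts, overlapping ranges with an interval of -0.25 to 0.69. In bulk tissue, fewer cells of a type and less RNA per cell cannot be told apart. The adipocyte markers stood beside this result: 0 of 5 tested members of 7 listed changed, against 15.7% of all tested genes. Their summed level ran from 34.5 to 78.0 CPM in controls and from 38.4 to 83.6 in knockouts. Of the 7 endothelial markers 0 changed, against the same 15.7%. They summed to between 481 and 573 CPM in controls and between 449 and 526 in knockouts. Of 6 tested macrophage markers of 7 listed, 3 fell (Cd163, C1qb and Csf1r), or 50%, against 6.80% of all tested genes. The 7 summed to between 66.1 and 111 CPM in controls and between 49.7 and 79.7 in knockouts. The part of these cells in the Cd36 and Fabp4 levels was not tested.

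**Figure D2:**
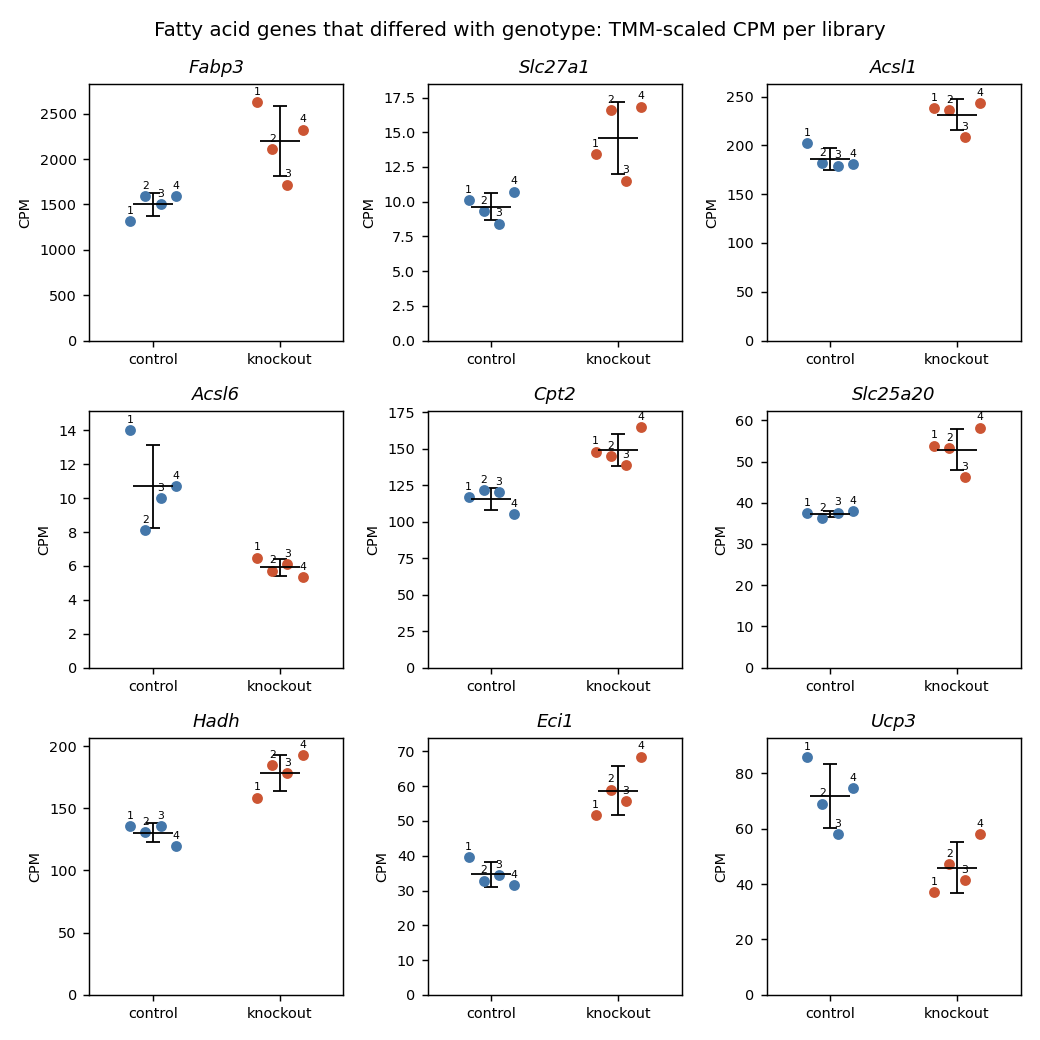
TMM-scaled CPM (y axis, from 0) in each of 4 control and 4 knockout libraries for the 9 genes past the threshold, with points numbered by library, the mean as a horizontal line and the SD as error bars. Each gene has no overlap between the groups, and for Ucp3 control 3 and knockout 4 nearly touch at 58.1 and 58.0 CPM.

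In lipolysis and at the lipid droplet 0 of 7 tested genes changed, against 15.7% of all tested genes. The gene of lowest p was Mgll, whose monoglyceride lipase takes the last fatty acid off glycerol. It was read at 141, 151, 171 and 148 CPM in controls 1 to 4 and at 206, 174, 144 and 195 in knockouts 1 to 4. Knockout 3 lay within the range of the controls and the other three knockouts above it, and the log2 fold change of 0.23 (SE 0.10) did not pass (edgeR adjusted p = 0.122). Without knockout 3 Mgll was called (adjusted p = 0.0256).

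Pnpla2 encodes ATGL, which takes the first fatty acid off stored triglyceride, and Lipe encodes hormone-sensitive lipase, which acts next. Pnpla2 averaged 234 ± 24.3 CPM in controls and 241 ± 16.8 in knockouts, with an interval for the log2 difference of -0.14 to 0.23. Lipe averaged 26.6 ± 4.04 and 27.0 ± 4.32 CPM, with a wider interval of -0.26 to 0.30. The data bound the change of Pnpla2 more closely than that of Lipe.

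Lpl, the lipoprotein lipase that acts on the vessel wall, ran from 341 to 410.1 CPM in controls and from 341 to 449 in knockouts (interval -0.10 to 0.29). Angptl4, a secreted inhibitor of that lipase and a classic target of the fatty acid sensing PPAR receptors, averaged 19.1 ± 3.63 CPM in controls and 15.4 ± 2.54 in knockouts (log2 fold change -0.31, SE 0.16). Both genes had overlapping groups. Plin2, which coats lipid droplets in most cells, stood within a narrow band of 19.0 to 20.2 CPM in controls and between 14.3 and 19.3 in knockouts (interval -0.48 to 0.07). Plin5, the perilipin that ties droplets to mitochondria in oxidative tissue, had a log2 fold change of 0.06 with an interval of -0.24 to 0.36.

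In the carnitine shuttle 2 of 4 tested genes rose (50%, against 8.87% of all tested genes) and 0 fell. Slc25a20 (ENSMUSG00000032602, GRCm38 chromosome 9, 108662088 to 108684641, plus strand) encodes the carrier that exchanges acylcarnitine for carnitine across the inner mitochondrial membrane. Its levels in controls 1 to 4 were 37.5, 36.3, 37.6 and 38.0 CPM, a spread of 0.751 CPM (SD), and in knockouts 1 to 4 they were 53.8, 53.3, 46.3 and 58.2. Every knockout lay well clear of the controls, and the log2 fold change was 0.50 (SE 0.10, edgeR adjusted p = 0.000844). Cpt2 (ENSMUSG00000028607, GRCm38 chromosome 4, 107903981 to 107923610, minus strand), the inner membrane transferase that turns acylcarnitine back into acyl-CoA, was at 117, 122, 120.0 and 105 CPM in controls 1 to 4 and at 148, 145, 139 and 164 in knockouts 1 to 4. Its groups did not overlap either, with a log2 fold change of 0.36 (SE 0.09, edgeR adjusted p = 0.00438).

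The transferase on the outer membrane, the controlled entry point of the shuttle, was seen only in part. Cpt1b, its muscle form, was counted at 0 reads in all 8 libraries, which allows at most 0.557 to 0.646 CPM per library for counting error alone. Cpt1b (GRCm38 chromosome 15, 89416405 to 89425863, minus strand) shares 81.4% of its exonic bases with Gm44502, a protein-coding gene on the same strand that also has 0 reads. A read that falls on both genes cannot be given to one of them by position, and how such reads were treated is not given in the sources used here, so this 0 is not a measure of Cpt1b RNA. Cpt1a, the form of liver and many other tissues, was lower in the mean, 12.1 ± 2.96 CPM in controls against 8.36 ± 1.90 in knockouts. Its log2 fold change of -0.53 (SE 0.20) did not pass (edgeR adjusted p = 0.0715), and control 2 was as low as the knockouts. Without control 2 the adjusted p was 0.0116, and without knockout 1 it was 0.0258.

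Mlycd encodes malonyl-CoA decarboxylase, which removes the inhibitor of the outer transferase. It averaged 178 ± 11.9 CPM in controls and 149.9 ± 16.3 in knockouts, a log2 fold change of -0.25 (SE 0.09, edgeR adjusted p = 0.0591). Only knockout 4, at 166.2 CPM, reached into the control range, whose lowest library was control 3 at 164.1. The gene passed the threshold in 8 of 16 alternative analyses (other scalings, filters and tools, and leaving out each library), among them each of the other scalings, with adjusted p from 0.0224 to 0.225 over all 16.

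**Figure D3:**
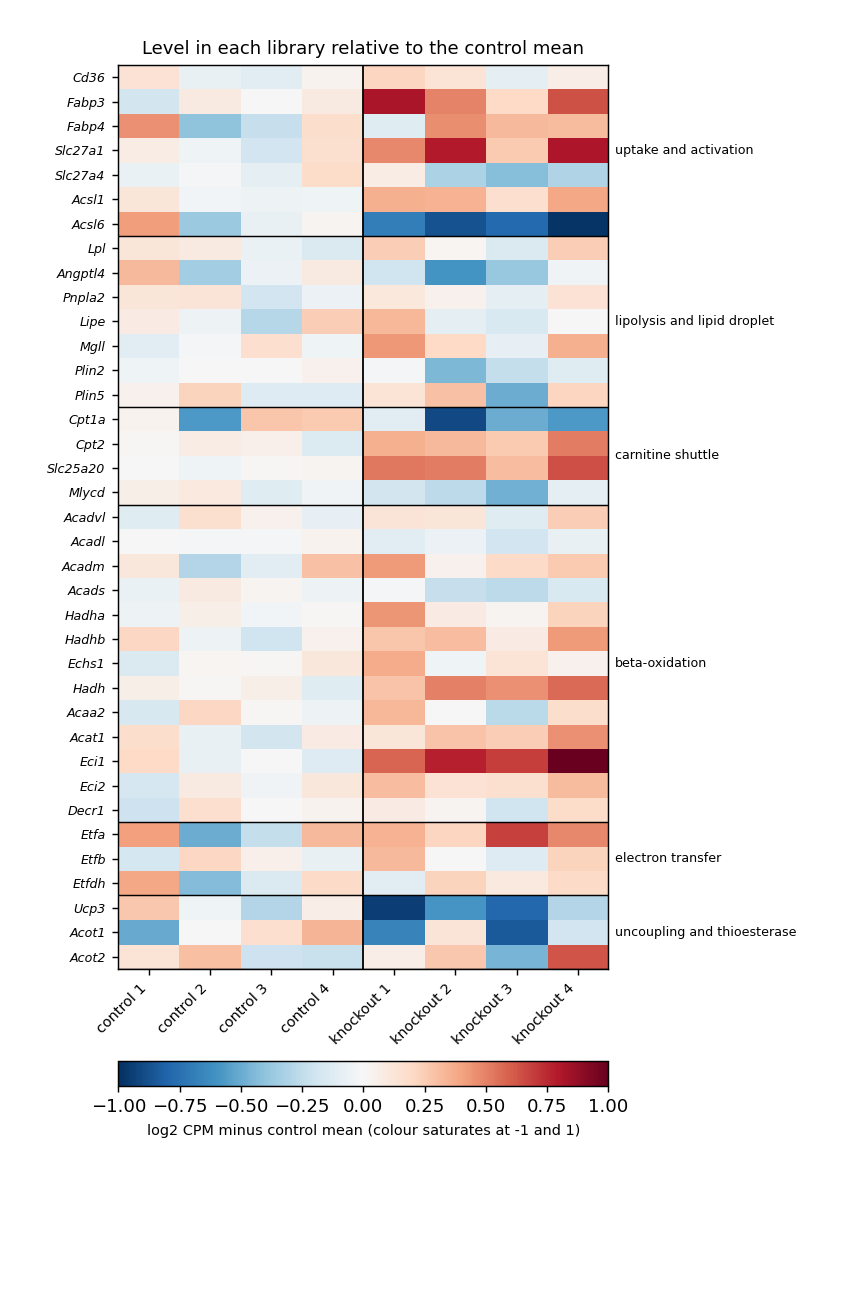
Log2 CPM of the 37 tested genes (rows, grouped by step) in each of the 8 libraries (columns) relative to the control mean, with red above it and blue below. Eci1, Slc25a20 and Hadh are red in all 4 knockouts, Acsl6 and Ucp3 are blue in all 4, and most lipolysis genes are mixed.

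In the oxidation spiral 2 of 13 tested genes rose (15.4%, against 8.87% of all tested genes) and 0 fell. Values were above 0 in 11 of the 13, and in 5446 of all 10691 tested genes. Eci1 (ENSMUSG00000024132, GRCm38 chromosome 17, 24426641 to 24439348, plus strand) had the largest rise of the 37 genes. It encodes the mitochondrial enoyl-CoA isomerase that shifts the double bond of unsaturated fatty acids so that they can enter the spiral. Controls 1 to 4 held 39.6, 32.8, 34.5 and 31.5 CPM and knockouts 1 to 4 held 51.7, 59.0, 55.7 and 68.5. The lowest knockout was well above the highest control, the mean went up from 34.6 ± 3.55 to 58.7 ± 7.14 CPM, and the log2 fold change was 0.76 (SE 0.11, edgeR adjusted p = 1.78e-05). Eci2, an isomerase with the same kind of activity, had groups that did not overlap, at 52.1 to 63.5 CPM in controls and 64.9 to 73.2 in knockouts, but its log2 fold change of 0.23 (SE 0.09) did not pass (edgeR adjusted p = 0.103). Decr1, the reductase that deals with the remaining double bonds of polyunsaturated chains, averaged 183 ± 19.4 CPM in controls and 186 ± 20.3 in knockouts. The enzymes for unsaturated chains therefore had unequal values, from 0.02 to 0.76 on the log2 scale, and no test compared them with each other.

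Hadh (ENSMUSG00000027984, GRCm38 chromosome 3, 131233419 to 131272101, minus strand) encodes the mitochondrial hydroxyacyl-CoA dehydrogenase for medium and short chains, the second dehydrogenation of the spiral. It was at 135, 131, 135 and 119 CPM in controls 1 to 4 and at 159, 184, 178 and 193 in knockouts 1 to 4. Knockout 1 was the lowest knockout here and still above every control, and the log2 fold change was 0.45 (SE 0.09, edgeR adjusted p = 0.000539). For long chains, the same step belongs to the trifunctional protein, whose subunits come from Hadha and Hadhb. These genes lie head to head on chromosome 5 of GRCm38, 85 bases apart, Hadha at 30118304 to 30155162 on the minus strand and Hadhb at 30155248 to 30184593 on the plus strand. Hadha averaged 433 ± 14.7 CPM in controls and 499 ± 66.3 in knockouts (log2 fold change 0.20, SE 0.09), and Hadhb averaged 67.6 ± 7.95 and 81.5 ± 7.88 (0.27, SE 0.10). Neither passed (edgeR adjusted p = 0.134 and 0.0677), although Hadhb did without control 1 (0.0291) or knockout 3 (0.0389).

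The acyl-CoA dehydrogenases open each round and divide the work by chain length. None of their 4 genes was called, against 15.7% of all tested genes. The very long-chain enzyme gene Acadvl had a log2 fold change of 0.09 (interval -0.09 to 0.28) and the medium-chain gene Acadm one of 0.22 (interval -0.01 to 0.45). The long-chain gene Acadl was at 503, 496, 499 and 517 CPM in controls 1 to 4 and 468, 483, 441 and 479.6 in knockouts 1 to 4. Each knockout of Acadl was below each control, yet the difference was small (log2 fold change -0.11, SE 0.08) and did not pass (edgeR adjusted p = 0.396). The short-chain gene Acads had a value of -0.16 (interval -0.34 to 0.01). Acadvl shares 42.9% of its exonic bases with Dvl2 on the other strand, which held 1202 reads against 16292, and its count carries that uncertainty.

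Of the remaining spiral genes, the hydratase gene Echs1 had a log2 fold change of 0.13 (SE 0.10) and the thiolase gene Acaa2 one of 0.07 (SE 0.11). Acat1, whose mitochondrial thiolase splits acetoacetyl-CoA, came closest to the threshold, at 90.0 ± 9.85 CPM in controls and 109 ± 10.6 in knockouts (log2 fold change 0.28, SE 0.10, edgeR adjusted p = 0.0504). Knockout 1 and control 1 were at 97.6 and 101.0 CPM, so the groups of Acat1 overlapped. Without control 1 the adjusted p was 0.0280 and without knockout 1 it was 0.0270.

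In electron transfer 0 of 3 genes changed, against 15.7% of all tested genes. Etfa and Etfb encode the flavoprotein that collects electrons from the acyl-CoA dehydrogenases, and Etfdh the oxidoreductase that hands them to ubiquinone. Etfa, of lowest p, was at 29.7, 15.8, 19.0 and 28.0 CPM in controls 1 to 4 and at 28.5, 26.0, 35.9 and 31.1 in knockouts 1 to 4. The controls of Etfa were split, with controls 1 and 4 inside the range of the knockouts and controls 2 and 3 below it, and the log2 fold change of 0.40 (SE 0.17) did not pass (edgeR adjusted p = 0.127, or 0.0312 without control 1). Etfb and Etfdh had values of 0.11 (interval -0.10 to 0.31) and 0.08 (interval -0.23 to 0.39). Etfb shares 58.2% of its exonic bases with same-strand genes that held 0 reads, and its count is uncertain there.

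Among the uncoupling and thioesterase genes 1 of 3 tested fell (33.3%, against 6.80% of all tested genes). Ucp3 (ENSMUSG00000032942, GRCm38 chromosome 7, 100472990 to 100486432, plus strand) encodes an inner membrane carrier of skeletal muscle and brown fat that is induced when fatty acid supply is high. It was at 85.9, 69.1, 58.1 and 74.6 CPM in controls 1 to 4 and at 37.1, 47.4, 41.4 and 58.0 in knockouts 1 to 4. The groups of Ucp3 did not overlap, but control 3 and knockout 4 were almost equal, and the log2 fold change was -0.65 (SE 0.13, edgeR adjusted p = 0.00208). Of 3 listed brown adipocyte markers, Ucp1, the defining one, had 0 reads in all 8 libraries. Cidea and Dio2 were detected at low levels and did not pass the threshold, with log2 fold changes of 0.55 (SE 0.23) and 0.26 (SE 0.24), and the 3 genes summed to between 6.89 and 11.0 CPM in controls and between 10.7 and 13.4 in knockouts. The part of such cells in the Ucp3 level was not tested. Ucp2, the form of many other tissues, lies 6904 bases beyond Ucp3 on chromosome 7 and was too low to test, with 19 reads in the controls and 25 in the knockouts together. Acot1 and Acot2, cytosolic and mitochondrial enzymes that split acyl-CoA again, had log2 fold changes of -0.37 (SE 0.29) and 0.15 (SE 0.22). The loci of Acot1 and Acot2 lie 15616 bases apart on chromosome 12. Of the 50-base stretches in the last 500 bases of Acot1 transcripts, 7.21% also occur in Acot2 transcripts, against 0% the other way, so part of the reads of Acot1 cannot be assigned with certainty.

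Promoter sequences were examined because many genes of fatty acid use are known targets of nuclear receptors, whose half-site is AGGTCA. RefSeq windows of GRCm38.p6, from 250 bases before to 50 after a start site, were held for 32 of the 39 genes (40 windows, some genes having several starts). The half-site, on either strand, was in 10 of the 40 windows (25.0%) and in 16.3% of the 32851 windows of all genes. It was in 0 of the 10 windows of the 7 genes that rose and in 2 of the 4 windows of the 2 that fell. Members that did not pass the threshold had it in 8 of 25 windows (32.0%). These members held 8 of the 10 windows with a half-site, but also 25 of all 40 windows. The 250 bases before the start are printed 5′ to 3′ for the window of Ucp3 at chr7:100472741-100472990 (plus strand), the window of Acsl6 with the sites at chr11:54303574-54303823 (plus strand), and, as the gene with the largest rise, Eci1 at chr17:24426433-24426682 (plus strand). Capitals mark the half-site, which reads TGACCT where it lies on the other strand.
Ucp3: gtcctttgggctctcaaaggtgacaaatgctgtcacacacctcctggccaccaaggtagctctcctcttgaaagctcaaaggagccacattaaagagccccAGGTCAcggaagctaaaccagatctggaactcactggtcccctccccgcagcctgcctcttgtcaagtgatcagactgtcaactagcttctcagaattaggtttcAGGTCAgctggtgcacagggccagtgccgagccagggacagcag
Acsl6: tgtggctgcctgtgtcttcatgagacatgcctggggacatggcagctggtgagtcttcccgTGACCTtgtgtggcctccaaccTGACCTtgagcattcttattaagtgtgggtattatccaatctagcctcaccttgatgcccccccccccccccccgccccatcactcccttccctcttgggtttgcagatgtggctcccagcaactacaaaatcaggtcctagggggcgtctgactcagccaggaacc
Eci1: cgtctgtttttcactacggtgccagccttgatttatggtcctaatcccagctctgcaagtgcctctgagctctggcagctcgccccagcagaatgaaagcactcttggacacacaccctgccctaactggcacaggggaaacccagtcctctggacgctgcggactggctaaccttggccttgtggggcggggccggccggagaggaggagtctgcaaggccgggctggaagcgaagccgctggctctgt
In Ucp3 the sites begin 149 and 44 bases before the start and run with the gene. In Acsl6 they begin 189 and 167 bases before it and run against the gene. The Eci1 window holds none. A match of letters is a description and not a binding site, and a window without one says nothing of a receptor acting elsewhere.

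Over the libraries, the genes did not separate the genotypes as a whole. The median of the 37 genes relative to the control mean was 0.05, -0.01, -0.05 and 0.04 on the log2 scale in controls 1 to 4, and 0.21, 0.12, -0.10 and 0.22 in knockouts 1 to 4. Knockout 3 therefore lay below all controls and the other three knockouts above them. For the 7 entry genes alone the medians were 0.21, 0.34, 0.16 and 0.31 in the knockouts and at most 0.12 in a control, and for the 13 spiral genes they were 0.28, 0.08, 0.08 and 0.24 against at most 0.04. The lipolysis median overlapped, from -0.15 to 0.14 in knockouts and from -0.07 to 0.08 in controls.

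Genes of oxidative fibres, which burn more fat, were measured beside these results. Myoglobin (Mb), the oxygen store of such fibres, was at 2769, 3464, 2801 and 2797 CPM in controls 1 to 4 and 6331, 4994, 4102 and 6144 in knockouts 1 to 4 (log2 fold change 0.87, SE 0.12, edgeR adjusted p = 6.14e-05). The fast oxidative myosin gene Myh2 was at 213, 536, 375 and 253 CPM in controls 1 to 4 and 1394, 805, 541 and 1054 in knockouts 1 to 4, a difference with a log2 fold change of 1.46 (SE 0.41) that did not pass (edgeR adjusted p = 0.0644), though it did in 4 of 16 alternatives (DESeq2, limma voom, edgeR without robust estimation, and without control 2). The groups did not overlap for either, with knockout 1 highest and knockout 3 lowest among the knockouts for both. Of the 7 fatty acid genes that rose, knockout 3 was the lowest knockout for Fabp3, Slc27a1, Acsl1, Slc25a20 and Cpt2, and knockout 1 was the lowest for Eci1 and Hadh. Knockout 1 was the highest for Fabp3 alone, and knockout 4 was the highest for the other six. Of 8 listed slow and oxidative fibre genes only 4 were high enough to test and 1 rose (25%, against 8.87% of all tested genes). That gene, Myl3, a slow myosin light chain, was at 7.75, 33.4, 26.0 and 27.7 CPM in controls 1 to 4 and 398, 171, 148 and 158 in knockouts 1 to 4 (log2 fold change 3.20, SE 0.53, edgeR adjusted p = 0.00916). Tnnt1 and Atp2a2, also tested, did not pass, with log2 fold changes of 1.09 (SE 0.89) and -0.14 (SE 0.17). The defining slow myosin gene Myh7 was near the floor in both groups, at 1.24 ± 1.55 and 1.19 ± 1.58 CPM. The 8 genes summed to between 238 and 605 CPM in controls and between 713 and 1852 in knockouts. Myh2, which did not pass, made up most of that sum in every library. Mb was listed with 5 general muscle fibre genes. Of these Acta1, skeletal actin, rose (log2 fold change 0.26, SE 0.09) and Myh4, the fast glycolytic myosin gene, fell (-0.31, SE 0.09). With Mb, 3 of those 6 changed (50%, against 15.7% of all tested genes). The values of the others were 0.22 for Ckm, 0.04 for Tnnt3 and -0.13 for Des. The part of fibre make-up in the fatty acid genes was not tested.

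**Figure D4:**
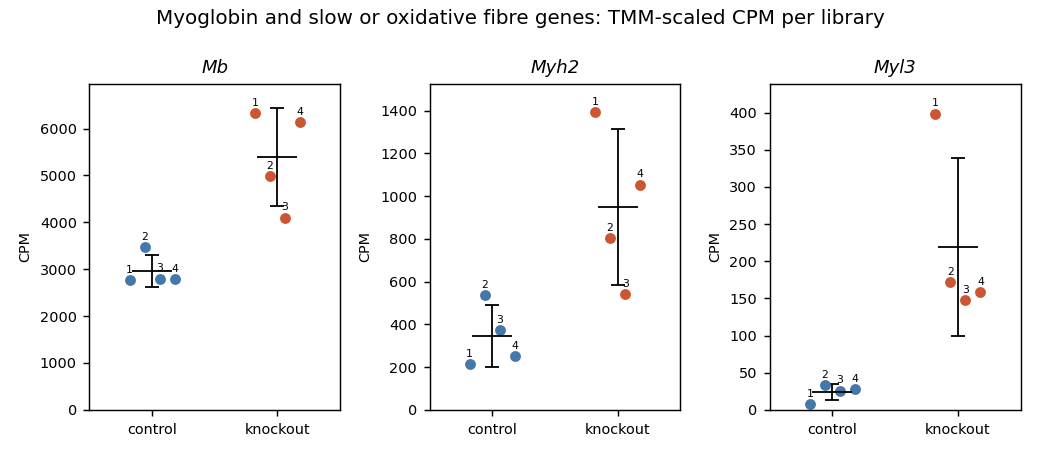
TMM-scaled CPM (y axis, from 0) of myoglobin (Mb), Myh2 and Myl3 in each control and knockout library, with points numbered by library, the mean as a horizontal line and the SD as error bars. Every knockout is above every control for each of the 3 genes, and knockout 1 is the highest for each.

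Other genes of the same pathway were listed by role, with earlier results of these data known, and read from the same fit. Of 63 listed genes 59 were tested, 7 rose and 5 fell (20.3% changed, against 15.7% of all tested genes), with a median log2 fold change of -0.05. At entry, 0 of 11 rose and 2 fell (18.2%, against 6.80% of all tested genes). Acsl3, a synthetase that feeds lipid droplet growth, was at 39.8, 40.3, 35.4 and 38.5 CPM in controls 1 to 4 and 23.0, 18.1, 22.9 and 24.5 in knockouts 1 to 4. It fell in every knockout (log2 fold change -0.80, SE 0.12, edgeR adjusted p = 2.41e-05). Of the other Acsl genes, Acsl6 also fell and Acsl1 rose. Acsl4 (-0.36, SE 0.13, edgeR adjusted p = 0.0543) and Acsl5 (-0.19, SE 0.25) did not pass, though the groups of Acsl4 did not overlap. Vldlr, a lipoprotein receptor that helps lipoprotein lipase deliver fat, fell from 265 ± 31.7 to 209.8 ± 14.0 CPM, a call that ended without knockout 4 (edgeR adjusted p = 0.0530).

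At the lipid droplet, where none of the 7 genes above changed, 3 of 10 other genes rose (30%, against 8.87% of all tested genes) and 0 fell. Plin3, a perilipin of small droplets, was at 38.1, 32.8, 36.0 and 35.1 CPM in controls 1 to 4 and 53.8, 54.8, 57.6 and 52.1 in knockouts 1 to 4 (log2 fold change 0.62, SE 0.10, edgeR adjusted p = 5.65e-05). The groups lay far apart compared with their spread. Dgat2, which completes triglyceride synthesis, rose from 20.1 ± 1.51 to 28.8 ± 2.39 CPM. G0s2, an inhibitor of ATGL, rose from 6.04 ± 2.12 to 9.60 ± 1.42 CPM with overlapping groups, and its call (edgeR adjusted p = 0.0402) was lost in 8 of 16 alternatives, among them leaving out control 1, 2 or 3 or knockout 3 or 4 (up to 0.151, without control 2). Abhd5, the activator of ATGL, had a log2 fold change of -0.22 (SE 0.11) that did not pass.

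None of 5 tested carnitine genes changed, against 15.7% of all tested genes. Acacb, whose product makes the malonyl-CoA that inhibits the shuttle, had an interval of -0.10 to 0.23. In oxidation 1 of 9 rose (11.1%, against 8.87% of all tested genes), the acyl-CoA dehydrogenase gene Acad11. It went from 13.5 ± 1.79 to 19.2 ± 3.51 CPM with overlapping groups, a call (edgeR adjusted p = 0.0239) lost in 7 of 16 alternatives. These were DESeq2 and leaving out control 2, 3 or 4 or knockout 2, 3 or 4 (up to 0.0890, without control 3). Coq8a, needed to make ubiquinone, rose with a log2 fold change of 0.42 (SE 0.10), 1 of 4 genes of that role (25%, against 8.87%). Its groups overlapped, with knockout 3 at 399 CPM and control 2 at 402. Coq7, Coq9 and Coq2 did not pass, with values of 0.26, 0.31 and -0.29. Of 5 uncoupling and thioesterase genes 3 changed (60%, against 15.7% of all tested genes). The thioesterase gene Acot13 (0.37, SE 0.09) and the adenine nucleotide carrier gene Slc25a4 (0.33, SE 0.10) rose, and Them4 fell (-0.47, SE 0.15). The groups of Slc25a4 and of Them4 overlapped, and those of Acot13 did not. The call of Slc25a4 was lost without control 1, 3 or 4 or knockout 2 or 4 (edgeR adjusted p up to 0.155, without knockout 4). That of Them4 was lost in 10 alternatives, among them leaving out any library but control 4 (edgeR adjusted p up to 0.145, without control 2).

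Of 15 tested regulators 0 rose and 2 fell (13.3%, against 6.80% of all tested genes). Rxra encodes the retinoid receptor that pairs with the PPAR receptors, and it was at 233, 256, 230.4 and 206 CPM in controls 1 to 4 and 163, 184, 178 and 175 in knockouts 1 to 4 (log2 fold change -0.41, SE 0.08, edgeR adjusted p = 0.00149). Lpin1, a phosphatidate phosphatase and coactivator, was at 480.1, 516, 401 and 476 CPM in controls 1 to 4 and 322, 373, 364 and 352 in knockouts 1 to 4 (-0.41, SE 0.09, edgeR adjusted p = 0.00186). Neither gene had overlapping groups. The receptor genes Ppara (interval -0.32 to 0.63) and Ppard (interval -0.68 to 0.17) and the PPAR target Pdk4 (interval -0.80 to 0.55) had intervals that reach across 0 and are wide. Ppargc1a, the coactivator of mitochondrial genes, was more closely bounded, at 43.5 ± 3.82 CPM in controls and 42.8 ± 0.905 in knockouts (interval -0.22 to 0.18).

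**Figure D5:**
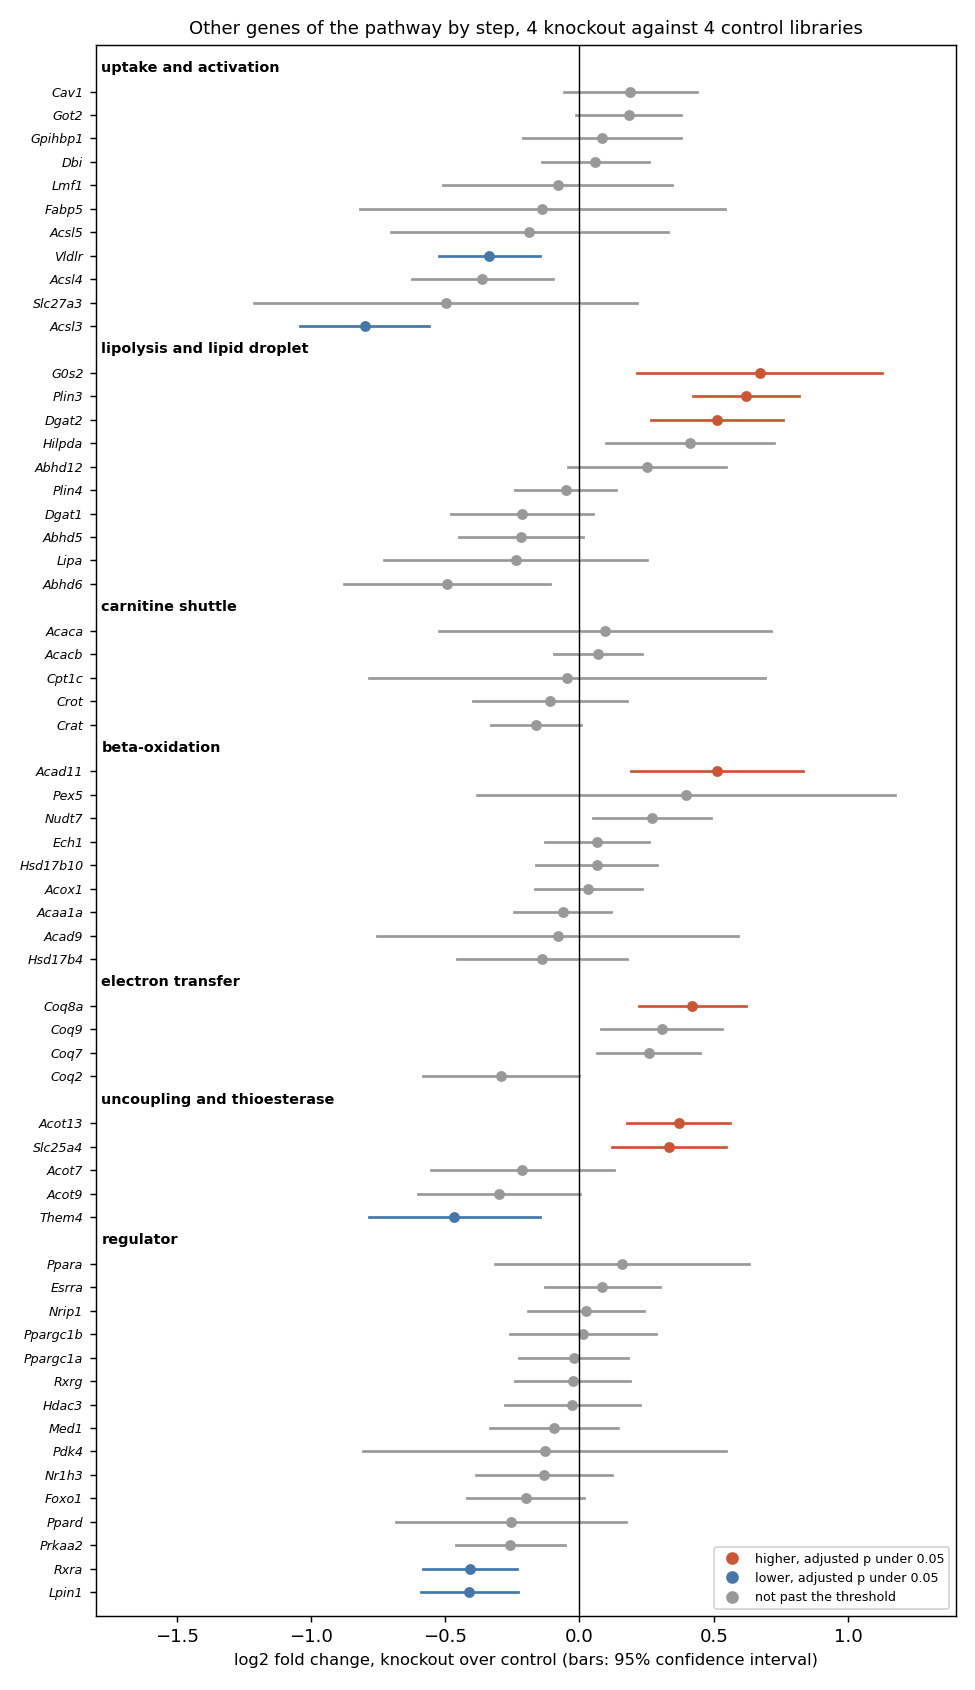
Log2 fold change of knockout over control (x axis) for the 59 other tested genes of the pathway, grouped by role, with 95% confidence intervals as bars. Past the threshold, 7 genes lie above 0 and 5 below, with Acsl3 the lowest of them.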

How the data were processed

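Quadriceps RNA of 8 libraries was analysed. The files hold whole read counts for each Ensembl gene, which the authors deposited without normalization, per the file headers. Tools listed in the submitters' processing notes are featureCounts, Subread 1.6.2 and Bowtie2 2.3.4.1, and the build is GRCm38 (mm10). Not given in the sources used here were the release of the annotation, whether counting used strand, and how reads that fit several genes were treated. Symbols and loci came from GENCODE M21 (GRCm38), and promoters from RefSeq.

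Genotype labels set the groups, and replicates were numbered in accession order. Per-gene chi-square values per degree of freedom were 2.33 to 7.96 in the 12 pairs of one genotype, so no library was a duplicate. In R 4.3.3 and edgeR 4.0.16, genes passed filterByExpr (minimum count 10, total 15), TMM scaled the libraries, and the genotypes were compared by the robust quasi-likelihood F test over 10691 genes. A floor of 3 reads equals 0.557 to 0.646 CPM and covers counting error only. SE is the log2 fold change over the square root of F.

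Tested on simulated data for this comparison over the same 10691 genes, the procedure recovered 6.67% of 1.25-fold, 52.0% of 1.5-fold, 79.3% of 2-fold and 94.7% of 4-fold changes. Far fewer genes were changed in the simulation than were called in the data. The adjusted threshold was therefore stricter there, and these shares may understate recovery in the data.

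Members and lists were chosen with earlier results of these data known. Values in all libraries are given for each called member and for the member of lowest p where a step had none; of the other genes, up to 4 called genes of lowest p per role are named. Alternatives were other scalings, other low-count filters (none, or at least 5 CPM in 4 libraries), DESeq2 1.42.0, limma 3.58.1 voom, edgeR without robust estimation, and leaving out each library. Comparison of proteins was not used here.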

Additional observations from a re-analysis of the deposited data

Results flagged for a closer look

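Acsl1 in control 1, at 202 CPM, stood apart from the other controls, which lay between 179 and 182 CPM. It was the single library to do so by Dixon's test among 74 groups of 4 examined for the 37 tested genes, and chance alone gives about 1 such group in 20. The library was the highest control and lay below every knockout.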

How the results depend on the processing

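Of the 9 called members, 7 were called under all 16 alternatives, and Acsl1 and Slc27a1 were lost without certain libraries, as given above. No called member changed sign. The number of members that fell was 2. It was 3 with RLE size factors, library totals, upper quartile scaling or at least 5 CPM in 4 libraries, and 4 without a low-count filter. Of all calls, 56.6% were higher, and 47.9% with library totals. Leaving out single libraries gave between 2 and 4 members lower, the 4 without knockout 1, between 5 and 10 higher and between 8 and 12 changed. Of the 28 uncalled members, 7 were called under at least one alternative (Mgll, Cpt1a, Mlycd, Acadm, Hadhb, Acat1 and Etfa). Uncalled genes near 0 changed sign: with library totals alone Lipe was -0.0191 and Decr1 -0.0117 on the log2 scale. Leaving out single libraries gave Pnpla2 from -0.0257 to 0.0916, Lipe from -0.100 to 0.103, Plin5 from -0.0264 to 0.208, Acaa2 from -0.0334 to 0.169, Decr1 from -0.0422 to 0.0936, Etfdh from -0.0609 to 0.214 and Acot2 from -0.0412 to 0.321. Single libraries left out gave 8 to 14 other pathway genes and 1307 to 1728 of all genes changed. The other scalings moved the median of all genes by at most 0.04 on the log2 scale. The median of the 37 members was 0.0978 in the main fit and 0.059 with library totals. It was 0.0409 without knockout 1, 0.0401 without knockout 4 and 0.1715 without knockout 3. The cause of these changes was not tested. No paired analysis was possible because no replicate number in the labels is shared between the genotypes. In the simulation, which had far fewer changed genes than were called here, changes of 1.25-fold were mostly missed. Ucp2, Acot1, Acsl6, Slc27a1 and Cpt1a rest on few reads.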
